A study of Monodelphis domestica with 2 samples.

Results

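Glutamatergic and GABAergic neurons of the primary visual cortex (V1) were compared within each of 2 gray short-tailed opossums (Monodelphis domestica), a marsupial. The nuclei were those that the authors had placed in a glutamatergic or a GABAergic class and given a subclass, 24497 of the 32764 labelled nuclei: 20150 glutamatergic (9085 in animal 1 and 11065 in animal 2) and 4347 GABAergic (2272 and 2075). Raw counts of unique molecular identifiers (UMIs, each standing for 1 captured RNA molecule) were summed per animal over each class, and over each of 8 glutamatergic subclasses (IT_A, IT_B, IT_C, IT_D, L5PT, L5NP, L6CT and L6b) and 5 GABAergic subclasses (Pvalb, Sst, Vip, Lamp5 and Frem1). Levels are given as CPM, the count scaled to a total of 1e6 UMIs in the same sum. A gene was called separated where every subclass of one class lay above every subclass of the other in both animals, a rule that 470 of the 30800 genes in the files met, 250 with the glutamatergic subclasses above and 220 with the GABAergic subclasses above. The separated genes are the members described here.

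Both animals were adult males, animal 1 aged 1.5 years and animal 2 aged 2 years, and they formed a single group. V1 of both hemispheres was pooled by animal and frozen, nuclei were sorted on a DNA stain, and each suspension was split over 2 libraries (1A and 1B, 2A and 2B), which count as 1 replicate, so that n = 2 animals throughout. The class labels had been drawn by the authors from clusters of these same expression values and from marker genes. A difference between the classes is therefore a description of the labelled nuclei, and the p-values below measure only the spread between 2 animals.

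The cortex holds neurons of both kinds. Glutamatergic neurons are excitatory, arise in the pallium and send axons to other cortical areas (IT, intratelencephalic), to the brainstem and spinal cord (L5PT, pyramidal tract) or to the thalamus (L6CT, corticothalamic), and they load glutamate into synaptic vesicles through vesicular glutamate transporters. GABAergic interneurons are inhibitory and mostly local, migrate into the cortex from the ganglionic eminences under transcription factors such as those of the DLX family, make GABA from glutamate with the decarboxylases encoded by GAD1 and GAD2, and load it into vesicles with the transporter encoded by SLC32A1. Pvalb and Sst interneurons come from the medial ganglionic eminence and Vip, Lamp5 and Frem1 interneurons largely from the caudal one.

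The 4 libraries held 55625042 to 69706055 UMIs over 36558 barcodes, and any pair of libraries had 16 to 30 barcode sequences in common. The class sums held 79184679 and 98745378 UMIs in glutamatergic neurons and 15974251 and 13812691 UMIs in GABAergic neurons, so a GABAergic value rests on fewer counts. The median nucleus had 8115 and 8055 UMIs in the glutamatergic class, 6638.5 and 5951 in the GABAergic class, and 2111.5 and 2126 in the non-neuronal class. Scrublet, a doublet caller, had marked 2.23% and 2.96% of the glutamatergic nuclei and 2.42% and 3.33% of the GABAergic nuclei. Subclasses differed widely in size, from 56 and 53 nuclei in L6b to 4301 and 5563 nuclei in IT_A. IT_A and, among interneurons, Pvalb (1157 and 989 nuclei) weighed most in the class sums. In 8 nuclei the deposited type was L5NP while the subclass was L6CT, and the subclass was used.

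The authors had divided the clusters into classes by SV2B, GAD1 and GAD2, with SNAP25 as the marker of neurons, so the levels of these genes describe the classes and are no independent check of the labels. SV2B, which encodes a synaptic vesicle glycoprotein, stood at 891 and 868 CPM in the glutamatergic sums of animals 1 and 2, 71.5 and 84.6 CPM in the GABAergic sums and 41.1 and 66.9 CPM in the non-neuronal sums. Glutamatergic subclasses ranged from 595 to 1053 CPM in animal 1 and from 562 to 958 CPM in animal 2, with IT_B lowest and L6CT highest in both. The Lamp5 interneurons stood apart from the other GABAergic subclasses with 424 and 388 CPM of SV2B, close below the lowest glutamatergic subclass. GAD1 read 3.38 and 4.47 CPM in glutamatergic and 468 and 501 CPM in GABAergic neurons, with no overlap between any of their subclasses. Its lowest GABAergic subclass was Sst (297 and 317 CPM) and its highest Frem1 (679 and 613 CPM). GAD2 read 3.50 and 4.49 CPM in glutamatergic and 546 and 551 CPM in GABAergic neurons, from 250.3 and 254 CPM in Vip to 1259 and 1117 CPM in Lamp5 interneurons. SLC17A7, the vesicular glutamate transporter usually used for cortex, was not analysed here.

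**Figure D1:**
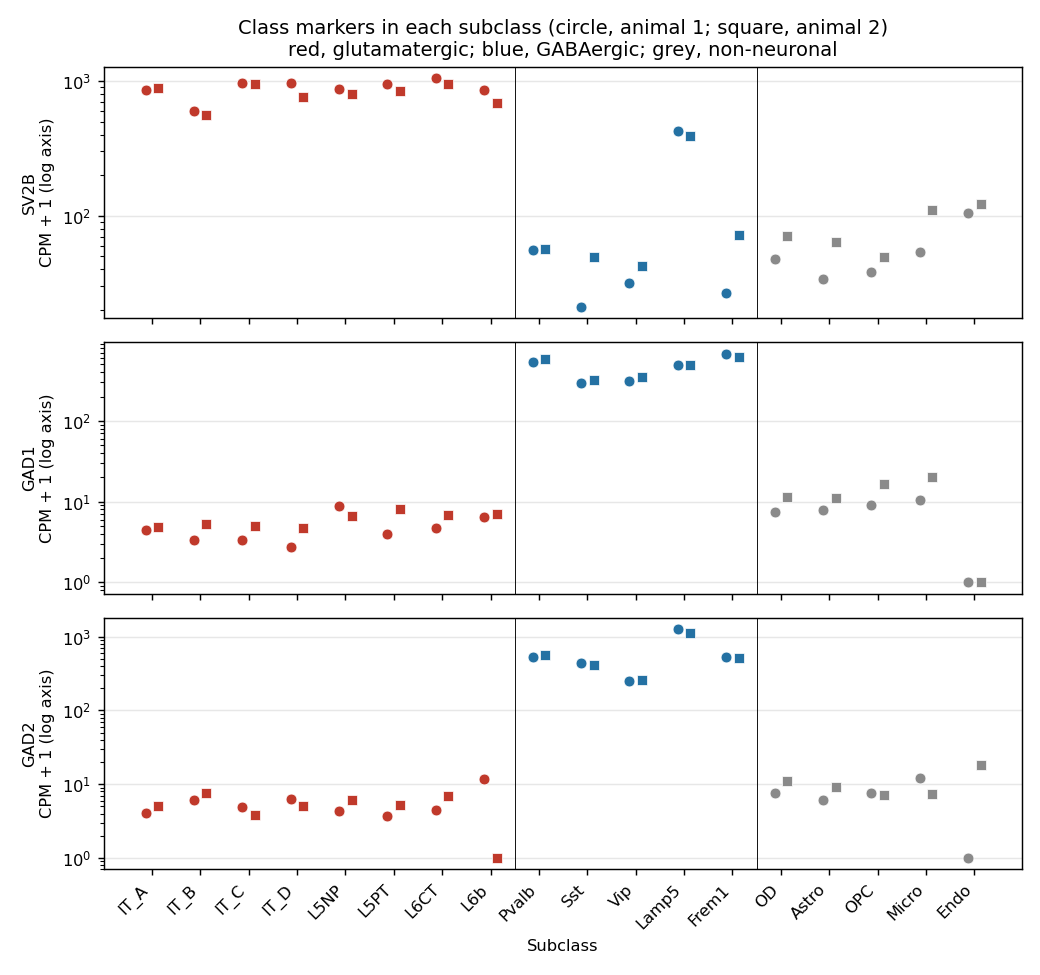
CPM + 1 on a log axis of SV2B, GAD1 and GAD2 (one panel each) in the 8 glutamatergic (red), 5 GABAergic (blue) and 5 non-neuronal (grey) subclasses, with a circle for animal 1 and a square for animal 2. SV2B in Lamp5 (424 and 388 CPM) comes nearest to the glutamatergic subclasses, whereas GAD1 and GAD2 leave a wide gap.

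The same markers were counted per nucleus after each nucleus had been thinned to 2000 UMIs, which left out 221 and 206 glutamatergic, 192 and 195 GABAergic and 2117 and 1611 non-neuronal nuclei that were shallower. SV2B was detected in 78.2% (77.4 to 79.1%) of glutamatergic nuclei of animal 1 and 77.2% (76.4 to 78.0%) of animal 2, with exact 95% intervals in parentheses. GABAergic nuclei had 10.2% and 12.6% and non-neuronal nuclei, which should lack it, 7.23% and 10.4%. The GABAergic share pools 5 subclasses and was not split, although SV2B was far higher in Lamp5 (424 and 388 CPM) than in the rest. GAD1 was detected in 56.6% (54.4 to 58.7%) and 57.4% (55.1 to 59.6%) of GABAergic nuclei, against 0.733% and 0.939% of glutamatergic and 1.21% and 1.83% of non-neuronal nuclei. GAD2 gave 58.9% (56.7 to 61.0%) and 60.2% (58.0 to 62.4%) of GABAergic nuclei, against 0.587% and 0.755% of glutamatergic and 0.933% and 1.47% of non-neuronal nuclei. For both decarboxylases the share in glutamatergic nuclei was below that in non-neuronal nuclei, and its source was not tested. At this depth 81.0% and 82.0% of GABAergic nuclei had a UMI of GAD1 or GAD2, while 17.6% and 16.4% of GABAergic and 21.4% and 22.4% of glutamatergic nuclei had no UMI of any of the 3 markers. Without thinning, SV2B was detected in 95.3% and 96.3% of glutamatergic nuclei, GAD1 in 83.5% and 81.4% and GAD2 in 83.7% and 82.3% of GABAergic nuclei.

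Across all genes, the 4 class sums were compared with edgeR's quasi-likelihood test. Of 22174 genes that passed the low-count filter, 6093 had an adjusted p under 0.05 (Benjamini-Hochberg), 3247 higher in glutamatergic neurons (14.6% of those tested) and 2846 higher in GABAergic neurons (12.8%). With the animal as a block, edgeR called 9655 genes, all 6093 among them and 0 with the opposite sign. Of the 6093 genes, 3960 differed at least 2-fold, and the median log2 fold change over all tested genes was -0.01. Fold changes are given throughout as GABAergic minus glutamatergic on the log2 scale, with the standard error of the fit.

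Separation in every subclass was rarer than a difference between the sums. Genes with all glutamatergic subclasses above made up 1.13% of those tested, and genes with all GABAergic subclasses above 0.992%. The 249 glutamatergic members that were called (all but MYO5A) made up 7.67% of the genes called higher in glutamatergic neurons, and the 205 GABAergic members that were called made up 7.20% of the genes called higher in GABAergic neurons. Since the rule and the class test read the same counts, these calls add nothing to the members. Among the members, 164 glutamatergic and 150 GABAergic genes had a symbol, and 215 and 172 reached 20 CPM in the sum of their class in both animals. The margin of a gene was taken as the log2 ratio of the lowest subclass of the higher class to the highest subclass of the lower class, with 1 CPM added to each, in the animal where it was smaller. It reached 1, a 2-fold gap between the nearest subclasses, in 36 glutamatergic and 37 GABAergic members, and the median margin was 0.32 and 0.25.

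**Figure D2:**
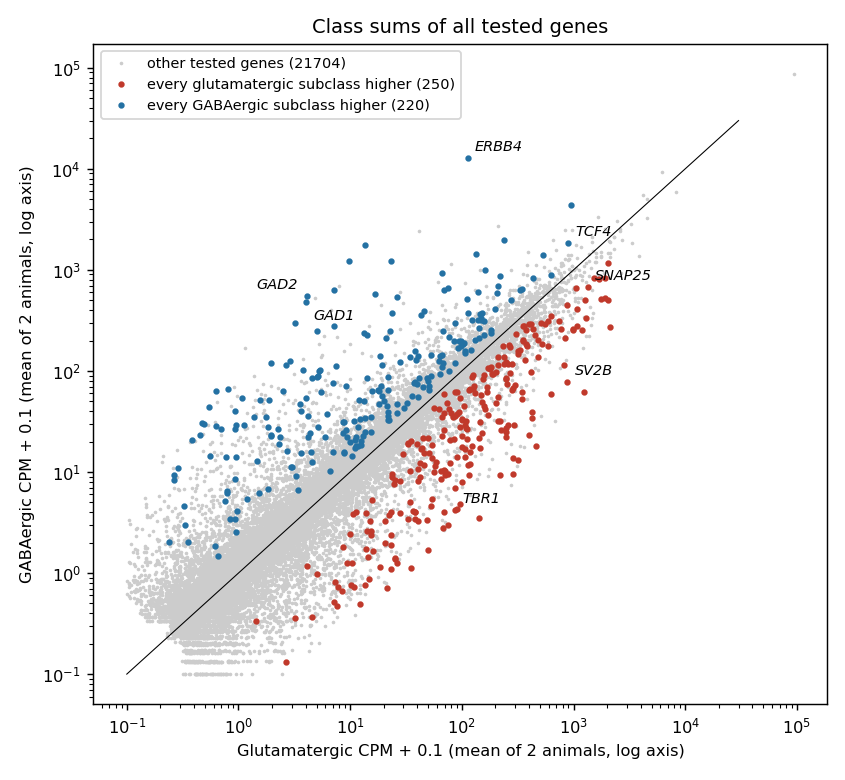
Mean CPM + 0.1 of the 2 animals in glutamatergic (x axis) and GABAergic (y axis) class sums, both on log axes, for all 22174 tested genes, with the 250 members higher in glutamatergic subclasses in red, the 220 higher in GABAergic subclasses in blue, the others in grey and the line of equal level in black. GAD1, GAD2 and ERBB4 lie far above the line and TBR1 and SV2B far below it.

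Transcription factors were among the 15 largest glutamatergic margins. TBR1, a T-box factor best known from deep layers, read 89.2 and 83.1 CPM in glutamatergic and 2.38 and 5.79 CPM in GABAergic neurons, and was highest in L6CT at 174 and 171 CPM and lowest in L5PT at 46.9 and 37.7 CPM, still above all interneurons (margin 1.88). RORB, a nuclear receptor of granular-layer neurons, varied more between subclasses, from 62.9 and 41.4 CPM in L5PT and 35.2 and 67.5 CPM in IT_D to 1344 and 1593 CPM in IT_B. All interneuron subclasses of RORB lay between 11.4 and 19.3 CPM, so that even its lowest projection neurons stayed above them (margin 1.06).

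Vesicle and transporter genes followed. SLC17A6, the vesicular glutamate transporter VGLUT2, stood at 25.1 and 24.9 CPM in the glutamatergic sums and 1.44 and 1.16 CPM in the GABAergic sums, a difference of -4.39 ± 0.18. It was highest in L5NP (90.9 and 103 CPM) and L6b (56.3 and 71.4 CPM) and lowest in IT_C (9.04 and 8.39 CPM), with a margin of 1.51. SV2B itself ranked 42nd by margin (0.49) because of Lamp5. SYNJ2, an inositol phosphatase of membrane traffic, read 198 and 249 CPM in glutamatergic and 25.7 and 26.6 CPM in GABAergic neurons, and ATP10A, a phospholipid flippase, 227 and 210.2 and 6.45 and 12.2 CPM in the same order. ATP10A reached 815 and 843 CPM in L6b against 65.8 and 58.0 CPM in L5NP, the lowest projection neurons for this gene.

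Signalling genes were among the rest. ARPP21, a cyclic AMP-regulated phosphoprotein, was nearly even across projection neurons, from 255 to 488 CPM in animal 1 and from 325 to 593 CPM in animal 2, against at most 39.5 and 54.3 CPM in any interneuron subclass (margin 2.56). RASGRP1, a diacylglycerol-responsive activator of Ras, read 258 and 240.0 CPM in glutamatergic and 26.7 and 22.8 CPM in GABAergic neurons. HOMER2, a scaffold that ties metabotropic glutamate receptors to calcium stores, read 71.8 and 78.8 CPM in glutamatergic and 10.1 and 8.62 CPM in GABAergic neurons and was highest in L5PT (161 and 160.1 CPM). Receptors among the 15 were VIPR2, which binds the peptides VIP and PACAP, with 204 and 295 CPM in glutamatergic and 17.2 and 26.7 CPM in GABAergic neurons, the orphan receptor GPR26 with 38.6 and 36.7 and 3.13 and 3.48 CPM, and the R-spondin receptor LGR6 with 62.7 and 72.1 and 2.32 and 3.11 CPM. VIPR2 in projection neurons thus exceeded every interneuron subclass while its ligand gene VIP read 0.303 and 0.466 CPM in the glutamatergic sums and 22.5 and 25.3 CPM in the GABAergic sums. The remaining genes were the membrane protein gene PTCHD1 (124 and 90.5 against 19.2 and 14.4 CPM), the secreted glycoprotein gene NELL2 (313 and 384 against 58.8 and 66.1 CPM) and TRIM66, a chromatin reader (35.5 and 39.6 against 4.19 and 3.69 CPM).

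On the GABAergic side, genes of GABA synthesis and transport were among the largest margins, including the markers GAD1 (5.09) and GAD2 (4.40). SLC32A1, the vesicular GABA transporter, read 0.871 and 0.790 CPM in glutamatergic and 44.0 and 36.2 CPM in GABAergic neurons, from 26.8 and 26.5 CPM in Frem1 to 55.3 and 46.0 CPM in Vip interneurons. No glutamatergic subclass had more than 1.18 CPM of SLC32A1 in animal 1 or 1.03 CPM in animal 2.

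Transcription factors were again among the 15 largest. DLX1, a homeobox factor of the ganglionic eminences, read 0.328 and 0.446 CPM in glutamatergic and 31.7 and 27.1 CPM in GABAergic neurons. Its highest interneuron subclass had 57.3 and 52.7 CPM, and no projection neuron subclass passed 1.89 CPM of it. TCF12, a basic helix-loop-helix factor, was abundant and even, from 1323 to 1908 CPM across interneurons of animal 1 and from 1093 to 1662 CPM in animal 2, against 99.2 to 155 and 97.1 to 145 CPM across projection neurons. Its class difference of 3.30 ± 0.11 was smaller than that of DLX1 (6.09 ± 0.22), although both separated cleanly.

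Genes of signalling and of other functions took the remaining places. ERBB4, the neuregulin receptor tyrosine kinase, read 111 and 114 CPM in glutamatergic and 12364 and 13094 CPM in GABAergic neurons (margin 3.00). It ran from 1965 and 1722 CPM in Sst to 17375 and 18862 CPM in Vip interneurons, and the highest projection neurons were L6CT (175 and 214 CPM). DUSP10, a phosphatase of stress-activated kinases, read 0.606 and 0.446 against 62.7 and 63.1 CPM and ARHGAP18, a GTPase-activating protein, 3.01 and 3.23 against 311 and 286 CPM. PTPRM, a receptor tyrosine phosphatase, showed how far interneurons can differ while staying separated: 2352 and 2309.8 CPM in Sst, 72.6 and 75.8 CPM in Vip and at most 17.6 and 19.5 CPM in any projection neurons. METAP1D, a mitochondrial methionine aminopeptidase, read 15 and 13.3 CPM in glutamatergic and 240.4 and 215 CPM in GABAergic neurons and was highest in Vip (453 and 482 CPM). SYTL5, an effector of Rab proteins, read 2.66 and 2.51 against 118 and 110.3 CPM, DCBLD1 3.84 and 3.12 against 47.2 and 46.7 CPM and ANKRD55 1.45 and 2.22 against 117 and 124 CPM.

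**Figure D3:**
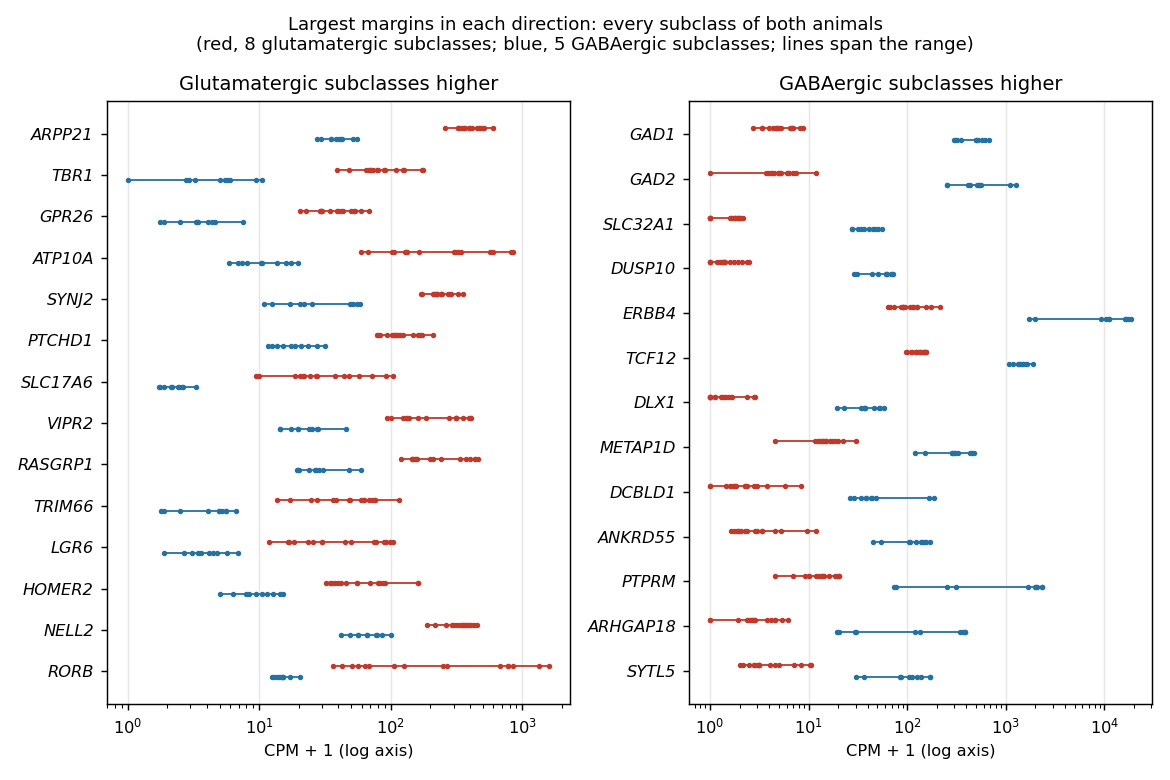
CPM + 1 on a log axis of the named genes among the 15 largest margins in each direction, one gene a row, with a point for every subclass and animal (red, 8 glutamatergic subclasses; blue, 5 GABAergic subclasses) and lines spanning each class. The classes share no value in any row, and the width of a line shows how much the subclasses differ among themselves, as for RORB and PTPRM.

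At the boundary, membership turned on differences of a few percent. Just inside on the glutamatergic side were KDM1B, a histone demethylase, PLXNA2, a semaphorin receptor, and TIAM2, a Rac activator. TIAM2 had 122 CPM in L6b of animal 1 and 122 CPM in Vip, its nearest interneurons. Just outside lay TUB, the splicing factor gene MBNL2 and the actin nucleator gene JMY, whose lowest projection neurons in animal 2 were L5PT at 62.4 CPM against 63.1 CPM in Vip. On the GABAergic side GPR137C, GPCPD1 and PLEKHM2 lay just inside and CUL1, UBAC2 and SRBD1 just outside. Small class differences could separate: GPCPD1, a phosphodiesterase of choline lipid breakdown, read 184 and 179 CPM in glutamatergic and 239.8 and 240.0 CPM in GABAergic neurons, a log2 difference of 0.28 ± 0.09.

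Being separated did not mean being even within a class. Among the 215 glutamatergic members at 20 CPM or more, the highest subclass exceeded the lowest by a median of 2.23-fold, with 89 genes under 2-fold and 11 at 10-fold or more. The extremes were taken in each animal and then averaged over both, so that they may come from different subclasses in the 2 animals, as for the lowest values of RORB. SLC26A4, an anion exchanger, had the widest range, 62.9-fold, from a lowest value of 2.13 CPM to 146 CPM in animal 1, and RORB followed at 38.3-fold. Among the 172 GABAergic members the median was 1.89-fold, with 90 genes under 2-fold and 12 at 10-fold or more. PROX1, a homeobox factor of caudal interneurons, had the widest range, 316-fold, from 0.564 and 0.651 CPM in its lowest interneurons to 215 and 169 CPM in its highest. Its lowest interneurons barely passed the highest projection neurons (0.536 and 0.516 CPM), so PROX1 met the rule on a handful of UMIs. TMEM132C, a membrane protein, ranged 83.4-fold, from 28.5 to 1674 CPM in animal 1, against at most 13.2 CPM in projection neurons.

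Lists of genes by role, written from general knowledge of cortical neurons, were then counted in the same edgeR test, where 14.6% of all tested genes were higher in glutamatergic and 12.8% higher in GABAergic neurons. Of 8 genes of GABA synthesis, transport and breakdown, 7 were higher in GABAergic neurons and 0 in glutamatergic neurons (median log2 difference 4.43, against -0.01 over all tested genes), and 6 were separated. GAD1 and GAD2 are counted here although the authors had used them to label the class, so their part was built in. Besides GAD1, GAD2 and SLC32A1, the separated genes included SLC6A11, the transporter GAT3, with 6.35 and 4.36 CPM in glutamatergic and 65.4 and 57.3 CPM in GABAergic neurons, and ABAT, the transaminase that breaks GABA down, with 25.8 and 19.0 and 250.3 and 243 CPM. ALDH5A1, which takes the next step of breakdown, was called at 0.49 but read -0.02 once IT_A and Pvalb were left out, and SLC6A13 was not called (0.85) except with the animal as a block, with equal subclass weights or without IT_A and Pvalb.

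Of 23 transcription factors of interneurons, 21 were higher in GABAergic neurons and 0 in glutamatergic neurons (median 4.23), and 11 were separated, among them DLX1, DLX2, MAF, PROX1, SP9, NPAS3, TCF4, ZEB2 and ZNF536. MAF, known from medial interneurons, read 17.9 and 15.4 CPM in glutamatergic and 616 and 529 CPM in GABAergic neurons, with every interneuron subclass at 172 CPM or more. LHX6, the factor that specifies medial interneurons, read 0.972 and 1.12 CPM in glutamatergic and 175 and 161 CPM in GABAergic neurons, a class difference of 7.18 ± 0.15, but was not separated, since Vip interneurons had 7.90 and 3.71 CPM and Frem1 interneurons 2.68 and 2.31 CPM. SOX6 (6.32 ± 0.12) and ADARB2 (5.77 ± 0.11) likewise differed strongly between the sums without separating the subclasses. NR2F1 (-0.23) and ETV1 (-0.39) were not called. NR2F1 was called higher in glutamatergic neurons with the animal as a block, but higher in GABAergic neurons without IT_A and Pvalb. ETV1 was called higher in glutamatergic neurons with each subclass weighted equally (-1.82) and without IT_A and Pvalb (-2.69).

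Of 23 factors of projection neurons, 16 were higher in glutamatergic neurons and 0 in GABAergic neurons (median -2.32), and 6 were separated, among them TBR1, RORB, FOXP1, NEUROD2 and NEUROD6. FOXP1, a forkhead factor, read 445 and 407 CPM in glutamatergic and 32.6 and 44.9 CPM in GABAergic neurons. NEUROD2 and NEUROD6, basic helix-loop-helix factors of maturing projection neurons, read 30.2 and 19.5 against 1.19 and 1.38 CPM and 19.1 and 21.4 against 1.75 and 2.03 CPM. FEZF2 (-3.00), which specifies L5PT neurons, and TLE4 (-2.48) were called without being separated. BCL11A (-0.15), BCL11B (-0.12) and CUX2 (-0.46), used as layer markers in projection neurons, were not called, and BCL11B read 425 and 333 CPM in glutamatergic and 382 and 379 CPM in GABAergic neurons. CUX2 was called higher in GABAergic neurons with equal subclass weights (0.56) and without IT_A and Pvalb (1.01), and the animal as a block gave 19 factors higher in glutamatergic and 0 in GABAergic neurons.

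Genes of the postsynaptic density were mostly higher in glutamatergic neurons, 14 of 18 against 1 higher in GABAergic neurons (median -1.05; 14 and 3 in edgeR with the animal as a block). The 5 separated genes were CAMK2B, NRGN, HOMER1, BAIAP2 and IQSEC2. BAIAP2, an actin-bundling scaffold, read 717 and 931 CPM in glutamatergic and 112 and 116 CPM in GABAergic neurons, and NRGN, which buffers calmodulin in dendritic spines, 57.6 and 54.7 and 7.76 and 12.0 CPM. HOMER1, a scaffold whose short form is induced by activity, differed between the animals in both classes, with 742 and 1644 CPM in glutamatergic and 194 and 316 CPM in GABAergic neurons, and separated in each. ITPKA, a kinase of spines, had one of the larger differences (-4.07 ± 0.21) without separating, and IQSEC1 (0.56 ± 0.09) was the gene higher in GABAergic neurons. GPHN, the gephyrin scaffold of inhibitory synapses, was not called (-0.12).

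Receptor genes lay in both directions. Of 21 genes of glutamate receptors and their auxiliary subunits, 7 were higher in GABAergic and 9 in glutamatergic neurons (median -0.07). The separated genes were the AMPA receptor subunit gene GRIA1, with 570.5 and 501 CPM in glutamatergic and 1520.5 and 1288 CPM in GABAergic neurons, and CACNG2, which encodes stargazin, an AMPA receptor auxiliary subunit, with 208 and 186 and 440.5 and 388 CPM. Both were higher in every interneuron subclass, whereas GRIA2 (-0.66), GRIN1 (-0.68) and the metabotropic genes GRM3 (-3.97) and GRM7 (-2.12) were higher in the glutamatergic sums. GRIN2C, an NMDA receptor subunit, read 2.60 and 2.69 CPM in glutamatergic and 52.5 and 50.7 CPM in GABAergic neurons. GRIA3, called at 0.56, turned to -0.17 with each subclass weighted equally, and CACNG3, called at -1.13, to 0.10 without IT_A and Pvalb.

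Of 13 genes for GABA receptors and chloride transporters, 3 were higher in GABAergic neurons (GABRA3 and GABRB2 among them) and 4 in glutamatergic neurons (GABRA2, GABRA4 and GABRA5 among them), 0 were separated, and edgeR with the animal as a block called 4 and 8 (median -0.28). GABRA3 read 5.03 and 4.46 CPM in glutamatergic and 36.6 and 27.8 CPM in GABAergic neurons. GABRA5, a subunit of extrasynaptic receptors, read 198 and 158 CPM in glutamatergic and 18.8 and 20.2 CPM in GABAergic neurons, and would have been separated without IT_A or without Frem1. GABRA4 (-0.44) turned to 0.08 with each subclass weighted equally.

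Among genes of transmitter release, some paralogs lay in opposite directions. Of 26 such genes, 5 were higher in GABAergic and 12 in glutamatergic neurons (median -0.36), and SV2B, STX1A and SNAP25 were separated. SV2B and SNAP25 were among the authors' labelling markers. SV2A (0.74) was higher in GABAergic neurons and SV2B (-3.62) in glutamatergic neurons, CPLX1 (1.90) opposed CPLX2 (-1.16), and SYT2 (4.59) opposed SYT6 (-3.57) and SYT9 (-2.42). SYT2, the fast calcium sensor of Pvalb terminals, read 6.34 and 4.76 CPM in glutamatergic and 139 and 151 CPM in GABAergic neurons. STX1A, a syntaxin of the plasma membrane, read 147 and 153 CPM in glutamatergic and 22.2 and 26.5 CPM in GABAergic neurons. SYT17 (-0.99) turned to 1.38 with equal weights.

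Of 23 potassium and sodium channel genes, 8 were higher in GABAergic and 7 in glutamatergic neurons (median 0.18). KCNC1, the Kv3.1 subunit of fast-spiking cells, was separated, with 144 and 135 CPM in glutamatergic and 589 and 623 CPM in GABAergic neurons, and was highest in Pvalb (815 and 878 CPM). KCNIP1, a Kv4-interacting protein, and KCNAB3, a beta subunit, were separated in the same direction (3.01 ± 0.11 and 1.99 ± 0.12). In all, 3 genes of this list were separated towards GABAergic and 1 towards glutamatergic neurons. SCN1A (0.66) was higher in GABAergic and SCN2A (-0.60) in glutamatergic neurons. SCN4B (0.77) turned to -0.26 without IT_A and Pvalb.

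Of 27 adhesion and guidance genes, 5 were higher in GABAergic and 12 in glutamatergic neurons (median -0.31), or 10 and 11 with equal subclass weights and 8 and 8 without IT_A and Pvalb. CNTNAP4, a contactin-associated protein, was the separated gene, with 281 and 199 CPM in glutamatergic and 2026 and 1905 CPM in GABAergic neurons. NLGN1, the neuroligin of excitatory synapses, read 3989 and 3791 CPM in glutamatergic and 1426 and 1300.5 CPM in GABAergic neurons, and ELFN1, a synaptic organiser on somatostatin cells, 0.657 and 0.537 and 18.2 and 20.2 CPM. SLIT2 (1.80) turned to -0.40 without IT_A and Pvalb, UNC5D (-0.51) to 0.18 with equal weights, and IGSF11 (-1.56) to 0.54 and 0.38 under these. Of 10 peptides and calcium buffers, 6 were higher in GABAergic and 0 in glutamatergic neurons (median 1.07). PNOC, the nociceptin precursor, was the separated gene with 1.04 and 0.911 CPM in glutamatergic and 51.5 and 56.0 CPM in GABAergic neurons, whereas SST (4.36) and VIP (5.80), which define single subclasses, were not separated. NPY (0.06) was not called. CRH was not called (-1.78) but was higher in glutamatergic neurons with the animal as a block, under DESeq2, with no low-count filter and with doublets removed. Of 5 genes with a symbol listed under glutamate supply, 3 were higher in glutamatergic neurons (SLC17A6, SV2B and SLC1A1) and 1, the glutamine carrier gene SLC38A2, in GABAergic neurons (median -0.38), and the animal as a block gave 3 and 2. SV2B encodes a vesicle glycoprotein, is also counted among the release genes and was a labelling marker, so its call was built in. SLC1A1 lost its call under DESeq2, RLE scaling, equal subclass weights, thinning and without IT_A and Pvalb, and SLC38A2 with no low-count filter, thinning and without IT_A and Pvalb. Of 5 genes of neuregulin and endocannabinoid signalling, 2 were higher in GABAergic neurons (ERBB4 and MGLL) and 2, the ligand genes NRG1 (-1.02) and NRG2 (-0.48), in glutamatergic neurons (median -0.0016).

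Of 9 genes used in neurons of all kinds, 4 were higher in glutamatergic neurons (SNAP25, RBFOX1, RBFOX3 and THY1) and 0 in GABAergic neurons (median -0.39), or 6 and 1 with the animal as a block. SNAP25, a t-SNARE and one of the authors' labelling markers, read 1353 and 1341 CPM in glutamatergic and 677 and 666 CPM in GABAergic neurons and was separated. Markers of oligodendrocytes and astrocytes were lower in both classes than in non-neuronal nuclei. The 6 oligodendrocyte markers summed to 108 and 102 CPM in glutamatergic and 149.6 and 131 CPM in GABAergic neurons, against 7188 and 7350.4 CPM in non-neuronal nuclei, and 1 (MBP, 0.35) was called, though not with no low-count filter, with thinning or without IT_A and Pvalb. The 6 astrocyte markers summed to 279 and 327 and 117 and 109 CPM against 6816 and 5937 CPM. SLC1A2, which made up most of that glutamatergic sum with 257 and 301 CPM, and ALDH1L1 were higher in glutamatergic neurons (-1.91 and -2.09) and SLC1A3 in GABAergic neurons (0.99), while AQP4 read 1.74 and 1.59 CPM in glutamatergic and 2.32 and 3.19 CPM in GABAergic neurons. Of 2 markers each for precursors, microglia and endothelium, 1 was called, the endothelial FLT1 (0.80). The 2 endothelial markers summed to 16 and 20.7 CPM in glutamatergic and 38.8 and 31.3 CPM in GABAergic neurons, against 48.0 and 65.6 CPM in non-neuronal nuclei. Those of precursors and microglia each summed to at most 3.51 CPM in either class. Their part in the class differences was not tested.

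**Figure D4:**
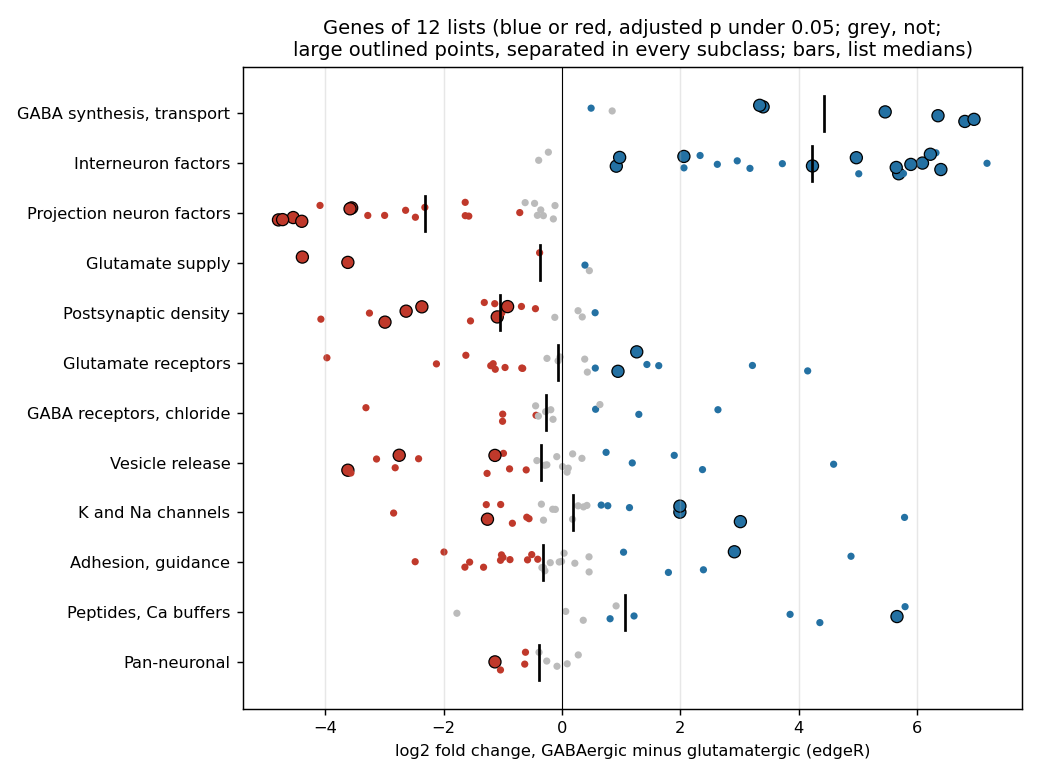
Log2 fold change (GABAergic minus glutamatergic, edgeR) of each gene in 12 lists, one list a row, with genes called at an adjusted p under 0.05 in blue (higher in GABAergic) or red (higher in glutamatergic), others in grey, large outlined points for separated genes and bars for list medians. Interneuron factors (21 of 23) and GABA supply (7 of 8) lie to the right and projection neuron factors (16 of 23) to the left, and the receptor and channel lists straddle 0.

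Some members not on these lists are named here after their values had been seen, as single genes and not as a count of any pathway. WASF1, an actin regulator, read 161 and 154 CPM in glutamatergic and 41.0 and 47.9 CPM in GABAergic neurons, and CYFIP2 492 and 475 and 209 and 194 CPM. NCKAP1, a member higher in glutamatergic neurons, had a class difference of -0.66 ± 0.14, with 351 CPM in the lowest projection neurons and 322 CPM in the highest interneurons of animal 1. The calcium release channel genes ITPR1, with 942 and 1019 CPM in glutamatergic and 236 and 274 CPM in GABAergic neurons, and RYR2, with 1529.5 and 1542 and 799 and 868 CPM, were separated towards glutamatergic neurons, as was STIM2, a sensor of store calcium (-1.05 ± 0.11). ADORA1, the adenosine A1 receptor, read 112 and 86.9 CPM in glutamatergic and 37.4 and 28.3 CPM in GABAergic neurons. Among GABAergic members, PCCA, a subunit of a mitochondrial carboxylase, read 166 and 151 CPM in glutamatergic and 300.1 and 323 CPM in GABAergic neurons, a class difference of 0.85 ± 0.10, and the gene of its partner subunit, PCCB, was not called (0.27).

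Many genes missed separation by 1 subclass. Leaving out L6b added 101 genes to the glutamatergic side and 104 to the GABAergic side, but with 53 nuclei drawn from every subclass these fell to 26 and 15, and L6b had the fewest UMIs of all neuronal subclasses (550746 and 504200). The nuclei came from a single random draw, in which the members themselves fell from 250 and 220 to 121 and 92. Gains at equal nuclei thus start from a smaller base. Leaving out Sst added 71 and 118 genes, or 47 and 44 at equal nuclei, the most of any subclass in both directions at equal nuclei. Leaving out IT_A, the largest subclass, added 8 and 10. ZFPM2, a cofactor of GATA proteins, was such a gene. Its glutamatergic subclasses ran from 117 to 1358 CPM in animal 1 and the other interneurons reached 30.8 CPM, but Sst interneurons had 939.7 CPM, and 854 CPM in animal 2. CACNA1E, the R-type calcium channel, was also as high in Sst (754 and 994 CPM) as in the lower projection neurons (577 and 621 CPM). Both would have been glutamatergic members without Sst.

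Other subclasses had exceptions of their own. In Pvalb interneurons, SEMA7A, a membrane-anchored semaphorin, read 43.5 and 47.4 CPM, within the range of projection neurons, against at most 8.88 and 7.75 CPM in other interneurons. CRTAC1, an extracellular matrix protein, read 188 and 283 CPM in Pvalb and at most 20.5 and 20.7 CPM in the rest. NFIA, a nuclear factor, would have been separated without Lamp5 interneurons, which had 288 and 252 CPM. Projection neurons had low exceptions too. GABRA5 was lowest in IT_A (77.0 and 66.0 CPM), where animal 2 fell under Frem1 (79.5 CPM), and GRM3, a presynaptic glutamate receptor, was low in IT_D of animal 1 (33.4 CPM, 19 UMIs) against 182 CPM or more in its other projection neurons.

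Among genes high in interneurons, USH1C, a scaffold known from hair cells, was low in Sst (4.23 and 11 CPM) while other interneurons had 90.0 to 1323 CPM in animal 1. GPR149, an orphan receptor, was low in Pvalb (6.70 and 6.64 CPM). SOX6 would have been separated without Frem1, which had 21.4 and 8.07 CPM. VAV3, a guanine nucleotide exchange factor, failed from the other side, since L5NP neurons had 99.6 and 61.8 CPM, more than any interneuron subclass.

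**Figure D5:**
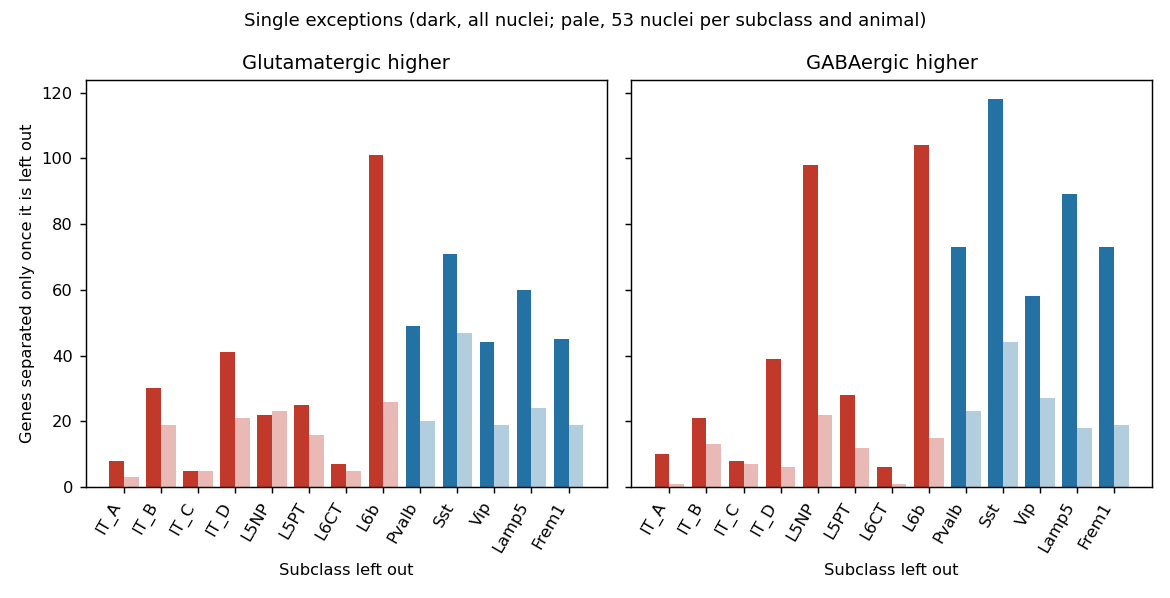
Number of genes that become separated when a single subclass is left out (x axis, the subclass; dark bars, all nuclei; pale bars, 53 nuclei per subclass and animal), for genes higher in glutamatergic and in GABAergic subclasses. L6b has 101 and 104 genes with all nuclei but 26 and 15 at equal nuclei, and Sst has 71 and 118 genes with all nuclei and 47 and 44 at equal nuclei. Members numbered 250 and 220 with all nuclei and 121 and 92 in the single draw of equal nuclei.

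The 5 non-neuronal subclasses were set beside the members at 20 CPM or more. Their values did not enter the rule, but the lowest subclass of the higher class did, so a higher share than over all genes is partly built in and nothing is read from it. All 5 lay below every glutamatergic subclass in both animals for 87 of 215 glutamatergic members (40.5%), and below every GABAergic subclass for 38 of 172 GABAergic members (22.1%). Over all tested genes at that level the shares were 9.56% and 8.91%. Conversely, some non-neuronal subclass lay above every neuronal subclass of the higher class for 46 glutamatergic members (21.4%) and 76 GABAergic members (44.2%), against 53.2% and 54.9% of all such genes. Without the endothelial nuclei, whose sums held 48514 and 57864 UMIs, all others lay below for 113 (52.6%) and 43 (25.0%) members, against 13.2% and 12.4%. The difference between the 2 sets of members was not tested. Astrocytes (Astro) had the highest non-neuronal value for 19 of the 76, among them genes that handle GABA and glutamine: ABAT with 393 and 394 CPM, SLC6A11 with 394 and 348 CPM and GLUL, glutamine synthetase, with 774 and 910.3 CPM, against 31.0 and 32.9 CPM of GLUL in GABAergic neurons. Oligodendrocytes (OD) were highest for 17, including TCF12 (3543 and 3567 CPM) and ZEB2 (594 and 598 CPM), and for 14 of the 46 glutamatergic genes, including SYNJ2 (919 and 882 CPM). Endothelial nuclei (Endo) were highest for 16 of the 46, including ATP10A (4019 and 2765 CPM) and HOMER2 (268 and 363 CPM), and for 7 of the 76. SLC32A1, DLX1 and GAD2 by contrast stayed at or below 17.3 CPM in every non-neuronal subclass.

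By gene order in the RefSeq annotation of the assembly mMonDom1.pri, used here for names and neighbours only, 308 members with a symbol were placed. Of 9964 neighbouring pairs of tested genes, 18 had both genes separated, 16 in the same direction. HAT1, METAP1D, DLX1 and DLX2 followed one another and were all GABAergic members, as were SLC32A1 and ARHGAP40, and SRPX and SYTL5. Pairs of glutamatergic members included HOMER1 with TENT2 and TRIM66 with STK33. MYT1 with OPRL1 and UBASH3B with SORL1 were neighbours in opposite directions. The authors had extended 3′ ends by up to 5 kb, and whether neighbours shared reads was not tested.

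The direction of some class differences depended on which subclasses weighed most. With the 26 subclass sums in one edgeR fit and each subclass weighted equally, 6909 of 16156 genes were called, 4298 of them also by the class sums. The 26 sums come from 2 animals and this fit treats the 13 sums of an animal as independent, so its p-values may be too small and its estimates are given without an error. Of the 4298 genes, 50 had the opposite sign, 34 higher in GABAergic and 16 higher in glutamatergic class sums, and 0 of them were separated. In 38 of the 50 the sign also turned when IT_A and Pvalb were left out of the sums. TNR, tenascin-R, a component of perineuronal nets, read 105 and 121 CPM in glutamatergic and 221 and 209 CPM in GABAergic neurons, a class difference of 0.80 ± 0.13 that became -0.74. Pvalb interneurons had 349.7 and 331 CPM of TNR, above all other neurons, while Lamp5 had 16.2 and 20.2 CPM and L6CT 187 and 196 CPM. KCNT1, a sodium-activated potassium channel, went from 1.15 ± 0.09 to -0.72, with 682 and 614 CPM in Pvalb and 55.3 and 30.5 CPM in Vip. In the other direction, IGSF11, an adhesion protein, went from -1.56 ± 0.13 to 0.38, with 347 and 292 CPM in IT_A, 12.7 and 21.8 CPM in L6b and 260.4 and 269.7 CPM in Frem1. FKBP5, a cochaperone of steroid receptors, went from -1.16 ± 0.14 to 1.23. It read 99.9 and 103 CPM in Frem1, at most 14.2 CPM in other interneurons and 41.3 and 39.9 CPM in IT_A. In L6b, the neuronal subclass with the fewest UMIs, FKBP5 read 0 and 0 CPM, and in L5NP 1.79 and 1.89 CPM. How far its turn rests on L6b was not tested.

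Finally, the classes were compared by the number of genes detected per nucleus. The median nucleus had 3175 and 3059 genes in glutamatergic and 2838.5 and 2607 genes in GABAergic neurons at the depth as sequenced. After thinning to 2000 UMIs the medians were 1237 and 1209 against 1236 and 1215, a difference of -1 gene in animal 1 and 6 genes in animal 2. With 2 animals no permutation test can reach 0.05, and none was run.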

How the data were processed

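Single-nucleus RNA was measured in V1 of 2 opossums, 2 droplet (10x 3′) libraries each. Cell Ranger had been run by the authors with intronic reads counted, on the ASM229v1 assembly and an Ensembl annotation with lengthened 3′ ends, and the matrices they deposited hold unnormalised UMI counts. A second deposited table gives, for each nucleus, quality calls, labels (class, subclass, type) and the authors' Scrublet doublet score, a fraction from 0 to 1. Of 36558 barcodes, 35079 passed the authors' quality call and 32764 carried a subclass. Ambiguous and doublet clusters, which the authors had left out, entered no class or subclass sum and no test.

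Counts were summed per animal and class or subclass and scaled to CPM. The 4 class sums entered edgeR 4.0.16 (R 4.3.3) with filterByExpr, TMM and the quasi-likelihood test, with Benjamini-Hochberg adjustment at 0.05. DESeq2 1.42.0, RLE scaling, no filter, the animal as a block, equal subclass weights, removal of doublets, of IT_A and Pvalb, and thinning were alternatives. Leaving out the endothelial nuclei was added after seeing the data. Other steps used Python 3.11.15, numpy 2.4.6, pandas 2.3.3, scipy 1.17.1 and matplotlib 3.10.9. Shares carry exact Clopper-Pearson 95% intervals, which cover counting error only.

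Named genes were SV2B, GAD1 and GAD2, for each direction the 15 largest margins (symbol present, at least 20 CPM in the higher class in both animals), the 3 genes just inside and just outside a margin of 0, and the genes of 18 lists. Some genes that met this rule are not reported here. The members and lists were chosen with earlier results of these data known. Of 30800 genes, 11590 had a symbol.

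The sums are paired by animal. Deviations of the 2 classes from their means correlated at 0.418 across 22174 genes. The test was tested on simulated counts for this comparison over 22174 genes: it recovered 4.48% of genes changed 1.5-fold, 37.3% of those changed 2-fold and 72.7% of those changed 4-fold, with 14 false calls. In the simulation 67, 67 and 66 genes were changed by these folds, far fewer than the 6093 called in the data. Its sums were drawn without the pairing by animal, so these rates need not hold for the data.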

Additional observations from a re-analysis of the deposited data

Results flagged for a closer look

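The authors had left ambiguous and doublet nuclei of the GABAergic class without a subclass, and RNA of both classes appeared in them. Ambiguous nuclei numbered 302 in animal 1 and 428 in animal 2 (median 1887 and 1859 UMIs) and doublet nuclei 356 and 248 (6928 and 9094.5 UMIs, 56.2% and 55.6% of them called by Scrublet). GAD1 stood at 313 and 407 CPM in ambiguous nuclei and 246 and 271 CPM in doublet nuclei, against 3.38 and 4.47 CPM in labelled glutamatergic neurons. GAD2 stood at 67.9 and 439 CPM in ambiguous and 379 and 368 CPM in doublet nuclei, so that the ambiguous nuclei of animal 1 lay below every labelled GABAergic subclass. ARPP21 stood at 444 and 535 CPM in ambiguous and 211 and 243 CPM in doublet nuclei, against 29.2 and 39.2 CPM in labelled GABAergic neurons. SV2B stood at 64.8 and 158 CPM in ambiguous and 399 and 376 CPM in doublet nuclei, against 71.5 and 84.6 CPM in labelled GABAergic neurons. In ambiguous nuclei of animal 1, SV2B was below its level in labelled GABAergic neurons, whereas ARPP21 was above its own.

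Of the 172 GABAergic members at 20 CPM or more, the ambiguous nuclei were at or above the lowest GABAergic subclass in both animals for 61 and within or below the glutamatergic range for 48. The doublet nuclei gave 67 and 8. Of the 215 glutamatergic members, the ambiguous nuclei were at or above the lowest glutamatergic subclass for 46 and within or below the GABAergic range for 55, and the doublet nuclei for 94 and 5. What these nuclei are was not tested.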

How the results depend on the processing

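With the animal as a replicate block, edgeR called 9655 genes in place of 6093, with 0 of the 6093 lost, and thinning to equal nuclei of 2000 UMIs gave 3931 of 13732 tested. Other settings gave 5637 (DESeq2) to 7557 (equal subclass weights with the animal as a replicate block; 6909 without it) genes, and 4461 without IT_A and Pvalb. With 1 animal left out, 1 sum a class remained, so fold changes could be had but no test. With 1 animal alone, 421 to 445 genes separated towards glutamatergic and 540 to 556 towards GABAergic neurons. In place of 250 glutamatergic and 220 GABAergic members, the counts were 140 and 100 in each of the 4 libraries, 435 and 385 without L6b and IT_D, 121 and 92 with 53 nuclei from each subclass, 36 and 37 at a 2-fold margin, and 62 and 46 over the 17 glutamatergic and 15 GABAergic types. TMM scaling gave 262 and 197, of which 222 and 173 were members, and removal of doublets 256 and 211. For the 43 genes that are markers, have the largest margins or lie at the boundary, 375 of 387 tested settings kept direction and side of the threshold, 8 (GPCPD1 and CUL1) passed it, 4 (PLEKHM2) lost it, and 0 reversed. The largest margins were picked from these same counts and the markers had defined the classes. For these genes the lack of reversals was therefore built in and is no check. Among called genes of the lists, ALDH5A1, GRIA3, CACNG3, GABRA4, SYT17, SCN4B, SLIT2, UNC5D and IGSF11 took the other sign with equal subclass weights or without IT_A and Pvalb. With 1 animal alone, 65 of 86 fold changes stayed within 1 standard error, that of the fit to both animals. Genes per nucleus differed by 2.5 (GABAergic minus glutamatergic, mean of both animals) at 2000 UMIs, -2.25 at 1000 UMIs, 16.5 at 4000 UMIs and -394.25 without thinning. The cause of these shifts was not tested. Some values of the smallest subclasses rest on few counts: in L6b of animal 2, CHST8 at 5.95 CPM rests on 3 UMIs.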

Other observations

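Across the 2 animals, OTOF and PARD6G were the genes whose class difference took opposite signs, each of at least 0.5 on the log2 scale, with 20 CPM or more in a class sum. OTOF, which encodes a calcium sensor of vesicle fusion, differed by 0.59 on the log2 scale in animal 1 and -1.06 in animal 2. It read 10.4, 9.54, 24.5 and 26.8 CPM in glutamatergic neurons of libraries 1A, 1B, 2A and 2B and 18.1, 14.2, 16.1 and 11.4 CPM in GABAergic neurons. IT_A held most of the glutamatergic signal (20.4 and 44.1 CPM) and Sst most of the GABAergic signal (67.6 and 60.1 CPM). PARD6G, a cell polarity gene, differed by 0.75 and -0.59, with 13.3, 13, 28.5 and 30.4 CPM in glutamatergic and 23.7, 24.1, 15.1 and 26.8 CPM in GABAergic neurons of the same libraries. In glutamatergic neurons both libraries of animal 2 lay above both libraries of animal 1 for OTOF and for PARD6G. The same held in non-neuronal nuclei, with 4.78, 6.91, 18.2 and 15.7 CPM of OTOF and 67.1, 58.5, 80.3 and 90.7 CPM of PARD6G in the libraries in that order. With 1 suspension per animal, animal and suspension cannot be told apart, and the difference between the animals was not tested.

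HOMER1, a member higher in glutamatergic neurons, also differed between the animals, with 742 and 1644 CPM in glutamatergic and 194 and 316 CPM in GABAergic neurons of animals 1 and 2. It stayed separated in both.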
